A study of Mus musculus with 12 samples.

Results

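The genes described here are the G1 cyclins, the kinases they activate and the inhibitors that hold those kinases back: Ccnd1, Ccnd2, Ccnd3, Ccne1, Ccne2, Cdk4, Cdk6, Cdk2, Cdkn2c and Cdkn1b. They were chosen by name, and every probe set annotated to 1 of them was taken, which gave 10 genes with 27 probe sets of the 18193 genes and 45037 probe sets tested. A probe set is a group of short probes that report on the same transcript, and a gene is represented below by its brightest probe set unless another is named. Total RNA of 4 mouse acute myeloid leukaemia lines, all derived from BXH-2 mice, had been hybridised to 12 one-colour arrays, 3 per line with the letters A, B and C. B117P and B140P are the parental lines, which the labels call sensitive to the cytidine analogue Ara-C (cytarabine). B117H was derived from B117P, B140H was derived from B140P, and the series calls both highly resistant. All 4 lines carry the same protocol text, which names a rising Ara-C exposure and passage in ASM media without the drug, so that text does not set the resistant lines apart. Each resistant line is 1 derived line, and whether it is a single clone, or whether its 3 arrays came from separate cultures, is not stated in the labels. The p-values therefore measure the spread between these arrays, which may be technical, and 3 arrays per line limit the precision.

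D-type cyclins bind Cdk4 or Cdk6 early in G1, when growth signals call for them, and the kinase then begins to phosphorylate the retinoblastoma protein and its relatives. E-type cyclins bind Cdk2 later in G1, finish that phosphorylation and help to fire replication origins, and the E2F factors freed from retinoblastoma protein switch on the genes of S phase. The protein of Cdkn2c, of the INK4 family, blocks Cdk4 and Cdk6, while that of Cdkn1b, called p27 Kip1, blocks cyclin E with Cdk2 and is degraded through the ubiquitin ligase subunit Skp2. In blood cells the D-type cyclins are known to respond to growth factors, and Ara-C acts on cells that are copying their DNA.

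The promoters of 3 of these genes are printed first because Ccne1 is the gene on which the results turn, while Cdk2, its partner, and Cdk4 serve for comparison. The RefSeq promoter table matched 7 of the 10 genes, with 9 promoters, and Ccnd1, Ccnd2 and Ccne2 were not matched. Each line gives the 250 bases before the annotated start in build GRCm38.p6, 5′ to 3′ on the gene's own strand. Capitals mark matches, on either strand, to E2F-type motifs in Ccne1 and Cdk2 (TTTCCCGC, TTTGGCGC, TTTCGCGC, TTTGCCGC and the shorter TCCCGC, which lies within the first of them) and to the E-box CACGTG in Cdk4.
Ccne1, chr7:38107491-38107740, minus strand: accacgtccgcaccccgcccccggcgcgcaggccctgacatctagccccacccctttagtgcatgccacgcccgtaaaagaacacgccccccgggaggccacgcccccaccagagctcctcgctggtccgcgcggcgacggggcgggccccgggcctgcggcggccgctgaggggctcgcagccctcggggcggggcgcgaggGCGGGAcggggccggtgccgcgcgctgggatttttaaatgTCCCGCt
Cdk2, chr10:128705052-128705301, minus strand: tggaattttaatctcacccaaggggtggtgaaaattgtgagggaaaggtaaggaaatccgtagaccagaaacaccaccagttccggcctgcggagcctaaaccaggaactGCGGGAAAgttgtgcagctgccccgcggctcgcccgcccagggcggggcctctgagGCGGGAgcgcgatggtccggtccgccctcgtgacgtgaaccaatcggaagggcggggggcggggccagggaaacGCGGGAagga
Cdk4, chr10:127063285-127063534, plus strand: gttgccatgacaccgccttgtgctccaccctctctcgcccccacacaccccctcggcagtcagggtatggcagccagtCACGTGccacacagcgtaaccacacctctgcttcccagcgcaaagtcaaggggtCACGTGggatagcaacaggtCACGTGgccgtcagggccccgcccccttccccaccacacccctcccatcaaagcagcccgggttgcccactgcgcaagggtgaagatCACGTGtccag
The Ccne1 promoter held 2 copies of the short TCCCGC motif and none of the long forms, 1 of them just before the start. The Cdk2 promoter held 3 copies of the short motif, 1 of which is part of a long form. The short motif was found in 16.9% and a long form in 1.86% of the 32851 RefSeq promoter windows of that length. The Cdk4 promoter held 4 copies of CACGTG, a motif that occurs in 6.02% of the windows and at least 4 times in 0.0213%. The GC box GGGCGG, not marked, had 4 matches in Ccne1, 5 in Cdk2 and 1 in Cdk4, and occurs in 32.7% of the windows. Of the promoters not printed, 1 of Cdkn2c held 3 copies of the short E2F motif, and that of Cdk6 held 1, with 1 CACGTG. These motifs were picked after the sequences had been seen, and a match describes letters, not binding.

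Levels are deposited RMA intensities on a linear scale, in which the lowest value of any array was 7.65 and array medians lay between 117.8 and 131.5. The lower quartile was 58.6 on array B of B140H and 50.8 to 53.7 on the other 11 arrays, so calls that rest on B140H are also given without its array B. Of 14 myeloid markers 13 were measured, and 13, 13, 10 and 11 of them lay above the median probe set in B117P, B117H, B140P and B140H. Their summed intensity was 76546 to 90391 on the B117P arrays and 61336 to 63990 in B117H. It was 33198 to 35703 in B140P and 29083 to 30296 in B140H, so it moved along with the resistant lines. Of the 13 markers, 5 fell in B117H and 2 in B140H (limma adjusted p under 0.05), beside 4.68% and 3.75% of all genes. The B140 lines were low in several defining markers. Between B140P and B117P, 10 of the 13 were lower and 1 was higher (limma adjusted p under 0.05), with a median difference of -1.22 on the log2 scale. Of all genes 11.8% were lower and 12% higher. Mpo, Kit and Lyz2 differed by -5.08, -4.96 and -4.69. Summed T cell markers (5 measured) ranged from 579 to 827 over all lines, erythroid markers (4) from 436 to 554 and fibroblast markers (6) from 480 to 751. Summed B cell markers (4 measured) were 371 to 472 in the B117 lines, 2108 to 2677 in B140P and 3372 to 4137 in B140H. No marker was listed at 0, since RMA gives no zeros, and the part of these differences in the results below was not tested. In bulk RNA, fewer cells with a transcript and less of it per cell cannot be told apart.

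Each resistant line was compared with its own parent, which is the contrast the study was set up for. All changes are differences of log2(intensity + 1), estimated with limma over all 12 arrays, and a gene was called where its Benjamini-Hochberg adjusted p over the 45037 probe sets was under 0.05. In B117H, Ccne1 and Ccnd2 fell and none of the 10 genes rose. In B140H, Ccne1 and Ccnd3 rose and Ccnd1 fell. So 2 of 10 genes were called in the B117 pair, where 9.41% of all genes were, and 3 of 10 in the B140 pair, against 6.56% of all genes. By direction the background was 4.73% up and 4.68% down in the B117 pair and 2.81% up and 3.75% down in the B140 pair. The median change of the 10 genes was 0.00 in B117H and 0.12 in B140H, beside -0.01 and 0.05 over all genes. Among the 27 probe sets, 4 fell in B117H, while 3 rose and 3 fell in B140H, beside 6.95% and 4.65% of all probe sets called in either direction.

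**Figure D1:**
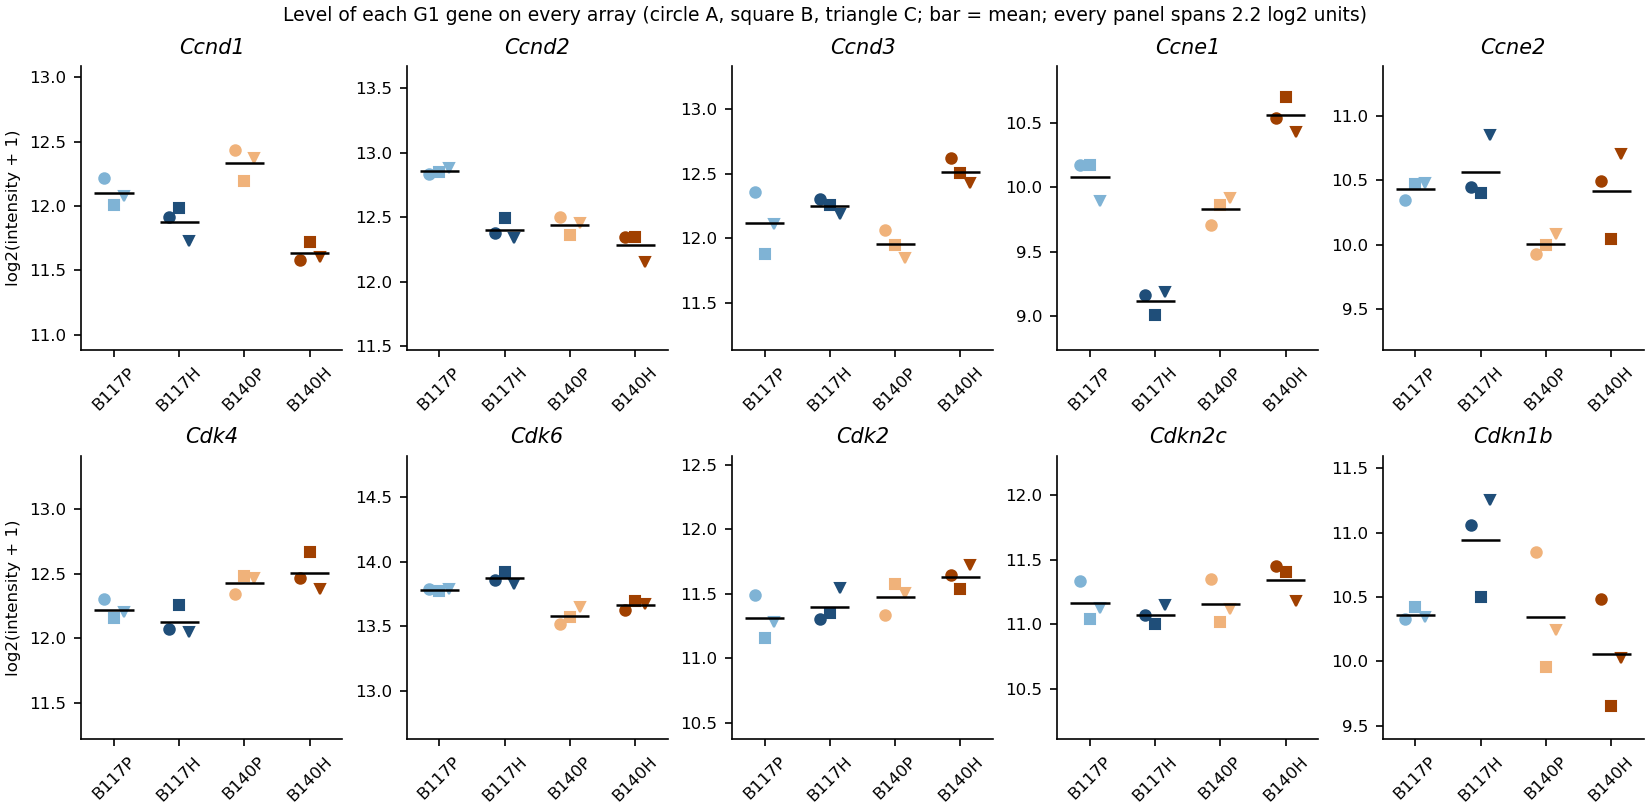
The log2(intensity + 1) of the brightest probe set of each of the 10 genes (vertical axis) is plotted for every array of the 4 lines (horizontal axis), with a bar at the mean of 3 arrays. Ccne1 is lowest in B117H and highest in B140H, with no array of either overlapping those of its parent, while the Cdk2 and Cdkn2c arrays overlap within each pair.

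Ccne1, the gene of cyclin E1, moved in opposite directions in the resistant lines. Its brightest probe set, 1441910_x_at, measured 1154, 1155 and 949 intensity units on arrays A, B and C of B117P and 575, 513 and 582 on those of B117H. In the other lineage it measured 837, 933 and 967 in B140P and 1489, 1664 and 1379 in B140H. Every B117H array lay below every B117P array, and every B140H array lay above every B140P array and above the B117P arrays too. In order of level the lines ran B140H, B117P, B140P, B117H, and only B117P and B140P, the neighbours in the middle, overlapped.

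The change of Ccne1 was -0.96 (SE 0.11, 95% interval -1.20 to -0.72) in B117H, with a limma adjusted p of 0.000144. In B140H it was 0.73 (SE 0.11, 95% interval 0.48 to 0.97), or 1.65-fold, with a limma adjusted p of 0.00194. The difference between the pairs, the B140 change minus the B117 change, was 1.68 (SE 0.16, 95% interval 1.34 to 2.03; limma adjusted p = 3.51e-05). Ccne1 was the 1 gene of the 10 called for that difference, where 10.4% of all genes were called, 4.91% upward and 5.51% downward. Of the 27 probe sets, 2 were called upward and 1 downward, where 7.58% of all probe sets were called. Without array B of B140H its rise was 0.65 (limma adjusted p = 0.00829) and the difference 1.61 (0.000115). The call of the rise in B140H ended when all 4 A arrays (limma adjusted p = 0.0611) or all 4 B arrays (0.0692) were left out, which leaves 2 arrays per line.

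The other probe set of Ccne1, 1416492_at, moved in the same directions. Its name does not end in _x_at, a suffix for probe sets that may also match other transcripts. It measured 726, 726 and 628 units in B117P against 387, 327 and 327 in B117H, and 515, 647 and 605 in B140P against 1043, 1158 and 1056 in B140H. Its arrays did not overlap within either pair. Its change was -1.0 in B117H (limma adjusted p = 0.000112) and 0.89 in B140H (0.000469), and the difference between the pairs was 1.89 (1.67e-05). Without array B of B140H the last 2 values were 0.84 (limma adjusted p = 0.00252) and 1.84 (7.65e-05). Ccne2, the gene of cyclin E2, was called in neither pair. It measured 1302, 1420 and 1425 units in B117P, 1394, 1355 and 1844 in B117H, 976, 1022 and 1084 in B140P and 1442, 1056 and 1671 in B140H. Array B of B140H was the low one of its line and overlapped the B140P arrays. Its change was 0.13 in B117H (limma adjusted p = 0.875) and 0.41 in B140H (0.217), and without array B of B140H the latter was 0.60 (0.0312).

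**Figure D2:**
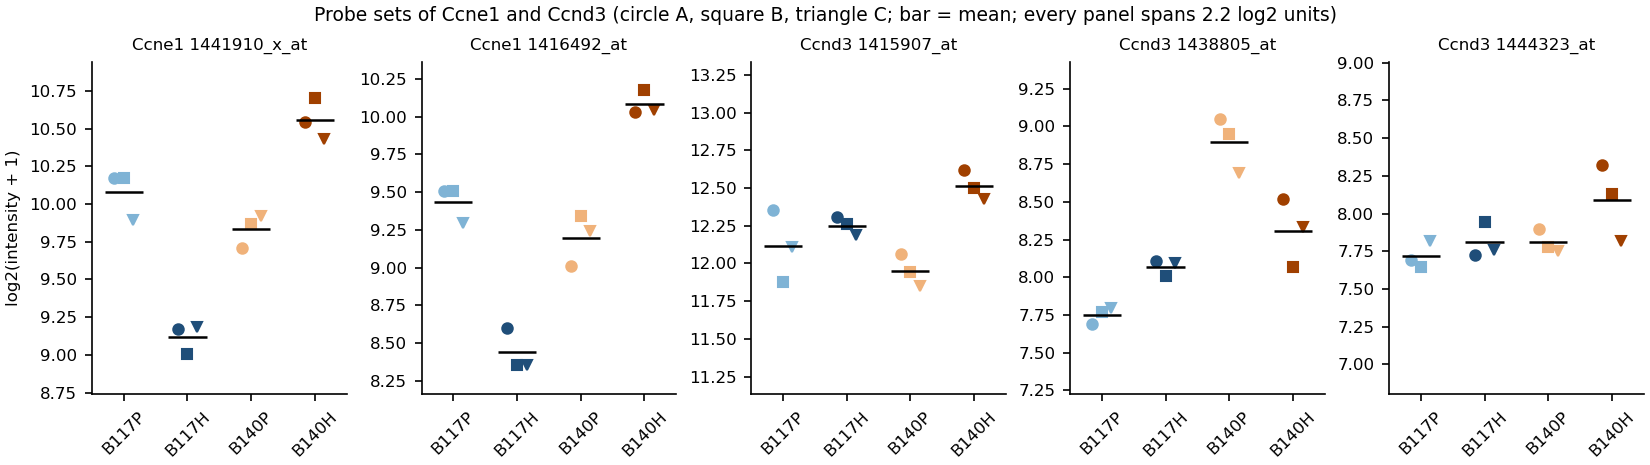
Each panel shows 1 probe set of Ccne1 or Ccnd3, with log2(intensity + 1) on the vertical axis and the 3 arrays of each line as points around a bar at their mean. Both Ccne1 probe sets fall from B117P to B117H and rise from B140P to B140H, whereas 1415907_at of Ccnd3 rises in B140H and 1438805_at falls there.

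Of the D-type cyclins, Ccnd1 fell in B140H. Its brightest probe set measured 5524, 4672 and 5287 units in B140P and 3069, 3376 and 3119 in B140H, and 4759, 4122 and 4310 in B117P against 3857, 4041 and 3391 in B117H. The resistant arrays lay below the parental ones in both lineages, by a wide gap in B140H and narrowly in B117H. Ccnd1 changed by -0.69 in B140H (SE 0.10, 95% interval -0.92 to -0.47; limma adjusted p = 0.00152), and its value in B117H was -0.23 (0.307). The difference between the pairs was -0.47 (limma adjusted p = 0.0778), so the fall is not shown to be particular to B140H. A second probe set, 1417420_at, also fell in B140H, by 0.83 on the log2 scale (limma adjusted p = 0.00274), with -0.34 in B117H (0.215), and it had -0.83 (0.0107) without array B of B140H. The third, 1417419_at, was brightest on array A of every line, with 3050, 1186 and 1221 units in B140P and 1736, 768 and 649 in B140H for A, B and C, and its values of -0.49 in B117H and -0.78 in B140H were not called. Without array B of B140H the change in B140H was -0.73 (limma adjusted p = 0.00314). The call ended with the mean of the gene's probe sets in place of the brightest (-0.77, limma adjusted p = 0.0514) and without all A (0.0567) or all C arrays (0.0705).

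Ccnd2, the gene of cyclin D2, fell in B117H. Its brightest probe set measured 7324, 7397 and 7561 units in B117P and 5320, 5767 and 5186 in B117H, and 5807, 5276 and 5621 in B140P against 5222, 5214 and 4565 in B140H. B117P stood above the 3 other lines, with no overlap, and those 3 lay close together. The change was -0.45 in B117H (SE 0.09, 95% interval -0.65 to -0.26; limma adjusted p = 0.00658) and the value in B140H was -0.16 (0.480), with a difference between the pairs of 0.30 (0.224). Of the other 6 probe sets, 1416124_at also fell in B117H (-0.68, limma adjusted p = 0.00612), and the remaining 5 had values from -0.51 to -0.65 that were not called. The call of the brightest probe set ended on leaving out all A, all B or all C arrays (limma adjusted p up to 0.180).

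Ccnd3, the gene of cyclin D3, rose in B140H by its brightest probe set. It measured 4279, 3939 and 3685 units in B140P and 6288, 5798 and 5498 in B140H, and 5246, 3764 and 4417 in B117P against 5059, 4904 and 4659 in B117H. The B140H arrays all lay above those of B140P, while those of the B117 lines overlapped. The change was 0.56 in B140H (SE 0.12, 95% interval 0.31 to 0.82; limma adjusted p = 0.0150) and the value in B117H was 0.14 (0.772). The difference between the pairs was 0.43 (limma adjusted p = 0.178). The call in B140H ended without array B (limma adjusted p = 0.0602) or C (0.0759) of B140P, without array A of B140H (0.0614) and without all arrays of any 1 letter, and it was 0.57 (0.0386) without array B of B140H.

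A second Ccnd3 probe set went the other way. 1438805_at measured 529, 495 and 413 units in B140P and 365, 268 and 322 in B140H, and 205, 217 and 222 in B117P against 275, 256 and 273 in B117H. It fell in B140H by 0.59 on the log2 scale (limma adjusted p = 0.0137), its value in B117H was 0.32 (0.189), and the difference between the pairs was -0.91 (0.00567). Without array B of B140H the change in B140H was -0.47 (limma adjusted p = 0.0431) and the difference -0.79 (0.00852). The third, 1444323_at, had values of 0.09 and 0.28 and was not called. The mean over the 3 probe sets of Ccnd3 gave 0.08 in B140H (limma adjusted p = 0.697), so the direction of this gene depends on which probe set stands for it. Which transcripts or exons the probe sets match is not given in the sources used here.

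**Figure D3:**
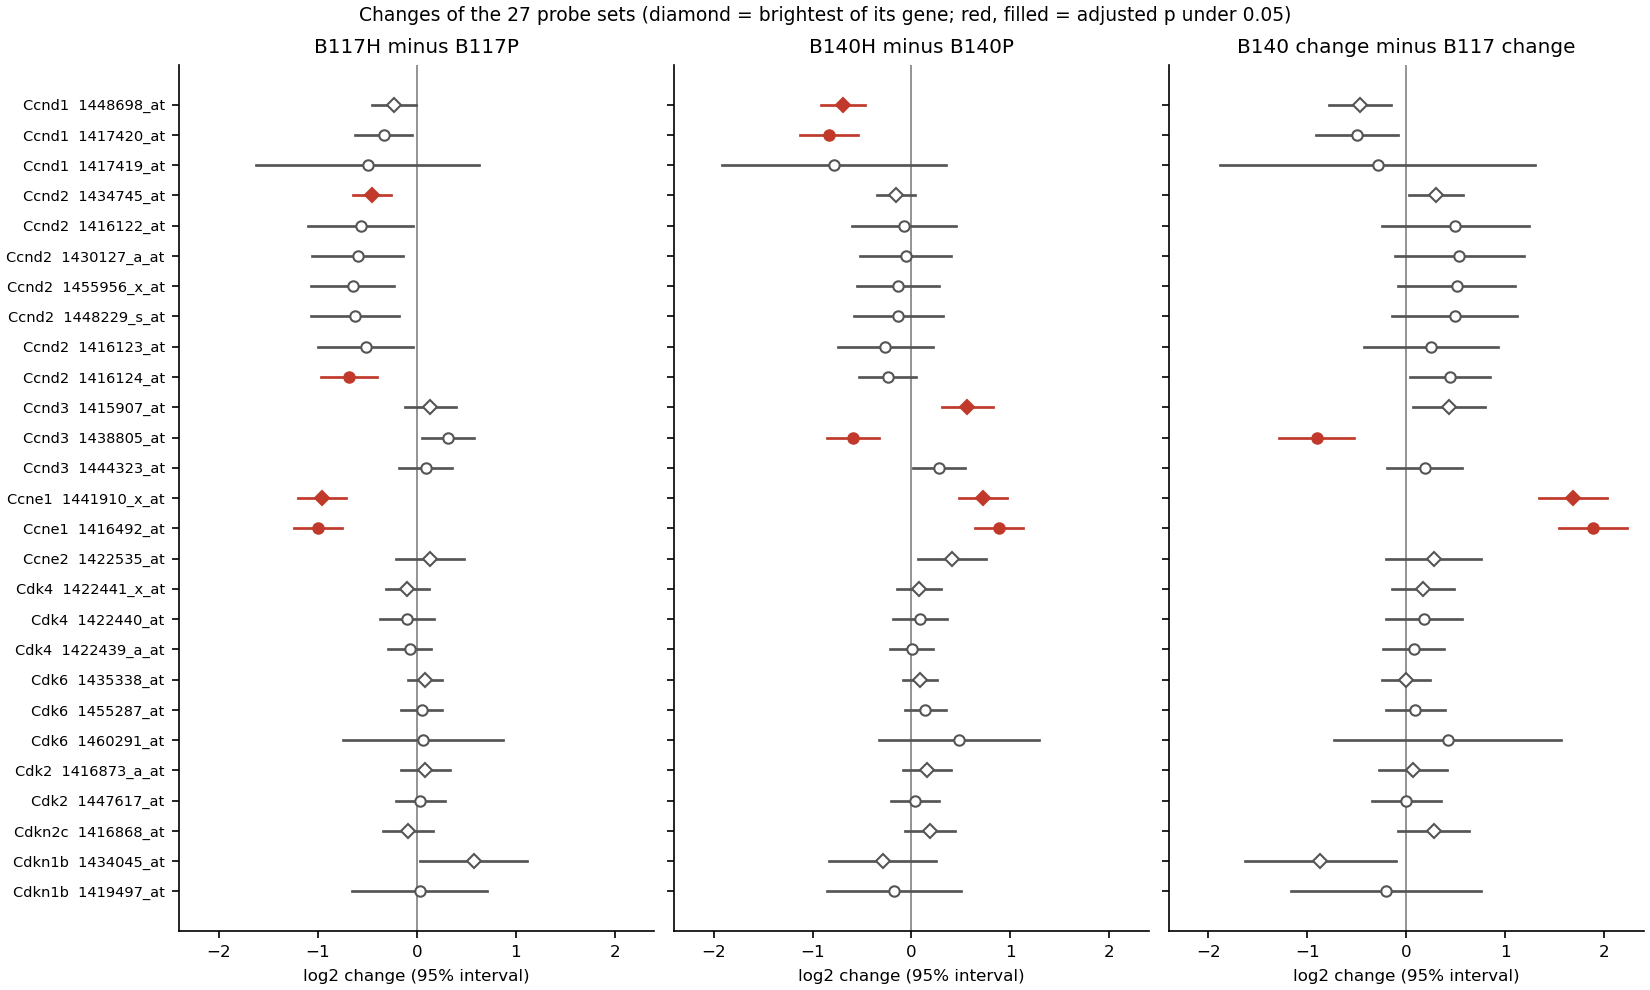
The log2 change of each of the 27 probe sets (points) with its 95% interval (lines) is shown for B117H against B117P, B140H against B140P and the difference between the pairs, on a shared horizontal axis. Both Ccne1 probe sets are called on opposite sides of 0 in the 2 pairs, the 7 Ccnd2 probe sets all lie below 0 in B117H, and those of Cdk4 and Cdk2 all have intervals that include 0.

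None of the 3 kinase genes was called in either pair. Cdk4 and Cdk6 encode the partners of the D-type cyclins and Cdk2 that of the E-type cyclins. Cdk6 averaged 14103 ± 73.0 units in B117P and 14991 ± 488 in B117H (SD, n = 3), and 12246 ± 561 and 12991 ± 320 in B140P and B140H. Its brightest probe set had 0.09 in both pairs, with 95% intervals of -0.08 to 0.26 in B117H and -0.09 to 0.26 in B140H. For that probe set a change of more than about 0.26 on the log2 scale lies outside them. The intervals of the others were wider. They were -0.16 to 0.26 and -0.07 to 0.35 for 1455287_at in B117H and B140H, and -0.75 to 0.87 and -0.33 to 1.29 for 1460291_at. Cdk4 averaged 4776 ± 254 and 4482 ± 362 units in the B117 lines and 5533 ± 296 and 5848 ± 615 in the B140 lines (SD, n = 3), with values of -0.09 (95% interval -0.31 to 0.13) and 0.08 (-0.14 to 0.30). Cdk2 averaged 2554 ± 304 and 2710 ± 243 units in the B117 lines and 2851 ± 239 and 3182 ± 209 in the B140 lines (SD, n = 3), with values of 0.09 (95% interval -0.16 to 0.33) and 0.16 (-0.08 to 0.40). The other probe sets of these genes were not called in either pair, and the second of Cdk2, 1447617_at, stayed between 10.5 and 13.6 units on all arrays, near the lowest intensities measured.

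Neither inhibitor gene was called in either pair. Cdkn2c averaged 2305 ± 244 and 2156 ± 109 units in the B117 lines and 2298 ± 277 and 2606 ± 254 in the B140 lines (SD, n = 3), with values of -0.09 and 0.18 (limma adjusted p = 0.893 and 0.542). Cdkn1b measured 1283, 1371 and 1296 units in B117P and 2135, 1449 and 2445 in B117H, and 1840, 990 and 1209 in B140P against 1431, 804 and 1044 in B140H. All B117H arrays lay above those of B117P, array B by little, and the B140 lines overlapped. Its value was 0.58 in B117H (SE 0.25, 95% interval 0.04 to 1.12; limma adjusted p = 0.265) and -0.29 in B140H (0.680), or -0.09 (0.951) without array B of B140H. The difference between the pairs was -0.87 (limma adjusted p = 0.198), and 0.0409 was the adjusted p with the array letter as a replicate block. Its dim second probe set, 1419497_at (45.8 to 104 units), had values of 0.03 and -0.18. Arrays of the 2 lines of a pair did not overlap for 5 of the 10 genes in the B117 pair (26.2% of all genes) and for 4 in the B140 pair (23.7%).

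The parental lines were also set against each other, as were the resistant lines. These comparisons share arrays with those above. Between the parents, Ccnd2 was lower in B140P (-0.42, limma adjusted p = 0.00440) and none of the 10 was higher, where 23.8% of all genes were called (12% up, 11.8% down). Arrays did not overlap for 4 of the 10 genes, against 38.6% of all genes. That call ended without all B or all C arrays (limma adjusted p up to 0.0707). Ccne2 had -0.43 (limma adjusted p = 0.0891), which passed with the letter as a replicate block (0.0237) and without array B of B140H (0.0251). Ccne1 had -0.25 (0.180) and Ccnd1 0.23 (0.178). The second Ccnd3 probe set, 1438805_at, was higher in B140P by 1.15 (limma adjusted p = 1.54e-05), where the brightest had -0.16 (0.492). In all 3 of the 27 probe sets were called between the parents, against 18% of all probe sets.

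Between the resistant lines, 3 of 10 genes were called, where 27% of all genes were (13.3% up, 13.7% down). Arrays did not overlap for 7 of the 10 genes, against 38.9% of all genes, and 5 of the 27 probe sets were called, against 20.7% of all probe sets. Ccne1 was higher in B140H than in B117H by 1.44 (limma adjusted p = 6.82e-07), and by 1.37 without array B of B140H (5.20e-06). Cdk4 was higher in B140H by 0.38 (limma adjusted p = 0.0161) and its probe set 1422440_at by 0.43 (0.0284), with 4310, 4897 and 4238 units in B117H and 5675, 6530 and 5337 in B140H for the brightest. The remaining Cdk4 probe set, 1422439_a_at, had 0.26 (0.0973) and was not called. Cdkn1b was lower in B140H, at -0.88 (SE 0.25, limma adjusted p = 0.0218), while its dim probe set 1419497_at had -0.21 (0.717). The Cdk4 call ended without array A or C of B117H or array B of B140H (0.0519 for the last), with only the compared lines in the fit (0.0685) and without all A, all B or all C arrays (up to 0.106). Its probe set 1422440_at had 0.32 (limma adjusted p = 0.104) without array B of B140H. Likewise the Cdkn1b call ended without those single arrays or array C of B140H (up to 0.0991), with the mean of its probe sets (0.0628) and without all C arrays (0.242).

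The rest of the pathway was followed in 8 lists that leave out the 10 genes and hold 88 measured genes. In B117H 9 of the 88 rose and 5 fell, with a median value of 0.09. In B140H 3 rose and 3 fell, with a median of 0.11. These counts stand beside 9.41% and 6.56% of all genes called in the 2 pairs, and 20% and 18.6% of all genes had an unadjusted limma p under 0.05. Of the 14 calls in B117H, those of Mnat1, Rbl2, E2f3 and Cks2 held under every alternative run, and each of the other 10 ended without all arrays of at least 1 letter. Each of the 6 calls in B140H ended under every one of these, whether all A, all B or all C arrays were left out.

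Of 18 measured genes that act in the turnover of G1 cyclins and p27, 4 fell in B117H and none rose. Of all genes 4.68% fell there and 4.73% rose. None of the 18 was called in B140H, where 6.56% of all genes were. An unadjusted limma p under 0.05 was reached by 7 of the 18 in B117H and 1 in B140H, beside 20% and 18.6% of all genes. Skp2, the ligase subunit that targets p27, measured 4943, 3129 and 3762 units in B117P, 1990, 1484 and 1373 in B117H, 1851, 1339 and 1359 in B140P and 2192, 1389 and 1645 in B140H. B117P was the high line and the 3 others overlapped. Skp2 changed by -1.28 in B117H (limma adjusted p = 0.00198), with 0.19 in B140H (0.762), and it was lower in B140P than in B117P (-1.37, 0.000371). Cks2, whose relative Cks1 helps Skp2 to bind p27, fell from 13115 ± 572 units in B117P to 7901 ± 257 in B117H (SD, n = 3), a change of -0.73 (limma adjusted p = 0.000133). Fbxo4, an F-box protein reported to act on cyclin D1, fell by 0.84 on the log2 scale (limma adjusted p = 0.00190), and Gsk3b, a kinase that marks cyclins D1 and E for degradation, by 0.48 (0.00805).

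**Figure D4:**
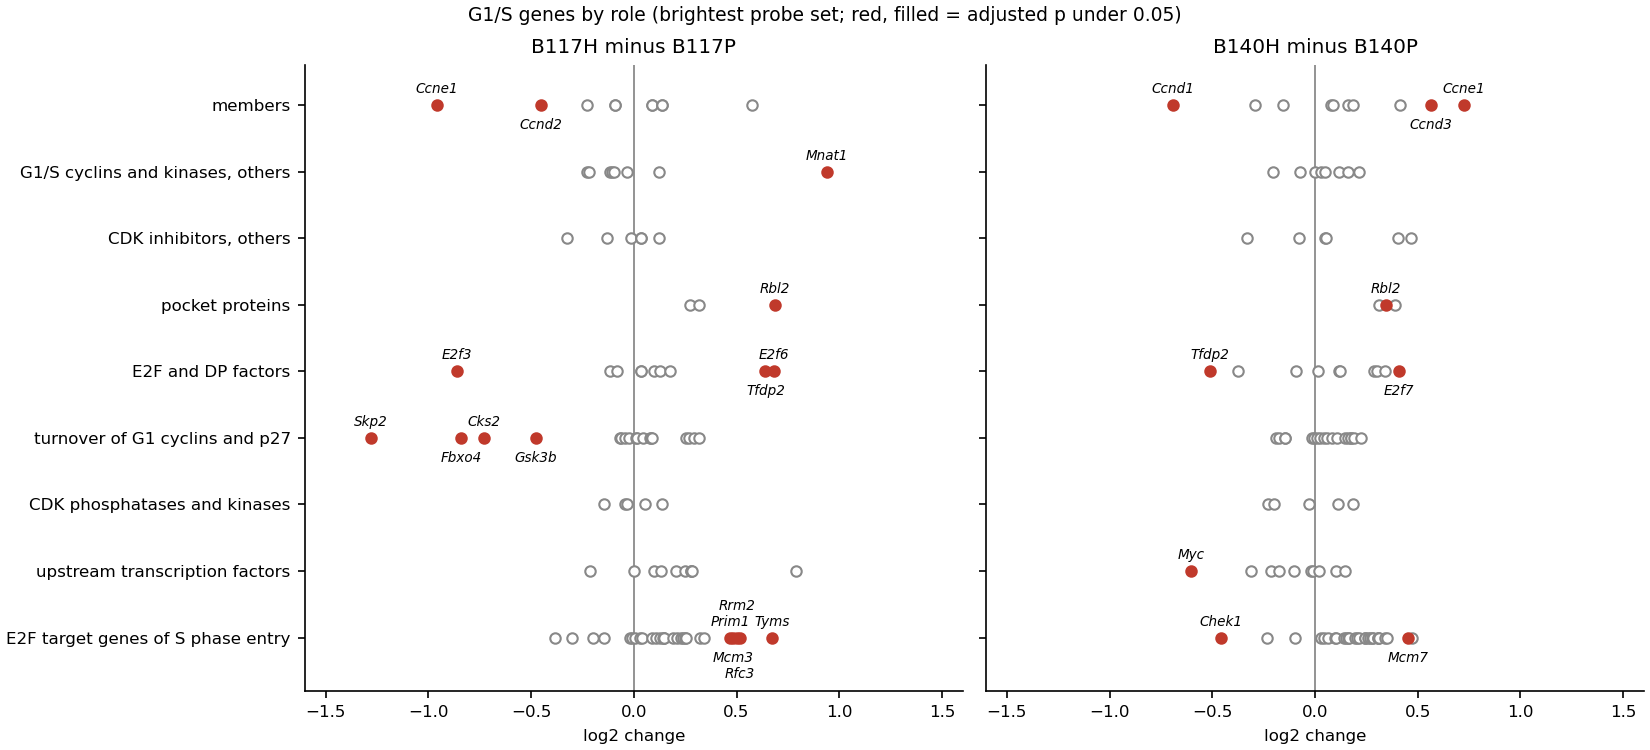
Each point is the log2 change of 1 gene, by its brightest probe set, in B117H (left) and B140H (right), with genes in rows by role and called genes filled and named. In the turnover row all 4 called genes lie below 0 in B117H, and in the row of E2F target genes all 5 called there lie above 0.

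Among the pocket proteins, the relatives of retinoblastoma protein that hold E2F factors, 1 of 3 was called in each pair. Of all genes 9.41% were called in the B117 pair and 6.56% in the B140 pair. Rbl2 rose by 0.69 in B117H (limma adjusted p = 0.000235) and by 0.35 in B140H (0.0345), but 8 of the 12 single arrays, left out in turn, ended the latter call. Of 10 E2F and DP factor genes, E2f6 (0.68, limma adjusted p = 0.00211), which encodes a repressor, and Tfdp2 (0.64, 0.00670), a partner of E2F proteins, rose in B117H and E2f3, an activator, fell there (-0.86, 0.000404). In B140H E2f7, a repressor, rose (0.41, 0.0450) and Tfdp2 fell (-0.51, 0.0358), calls that 11 and 8 single arrays ended. Without array B of B140H, Rbl2 had 0.38 (limma adjusted p = 0.0349), E2f7 0.51 (0.00987) and Tfdp2 -0.50 (0.0945). The difference between the pairs was -1.15 for Tfdp2 (limma adjusted p = 0.00148). An unadjusted limma p under 0.05 was reached by 2 and 3 of the 3 pocket protein genes in B117H and B140H. Of the 10 E2F and DP factor genes, 3 and 4 reached it, beside 20% and 18.6% of all genes.

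E2F target genes of S phase entry rose in B117H in 5 of 28 cases and none fell, with a median value of 0.15. Of all genes 4.73% rose and 4.68% fell there, with a median of -0.01. The 5 target genes included Tyms, which makes thymidylate (0.67, limma adjusted p = 0.00361), Rfc3, a clamp loader subunit (0.51, 0.00660), Rrm2, the small subunit of ribonucleotide reductase (0.50, 0.00567), and Mcm3 of the replicative helicase (0.48, 0.00974). With the mean of each gene's probe sets Tyms had 0.16 (limma adjusted p = 0.221) and E2f6 0.20 (0.273), and neither was called. In B140H 1 rose and 1 fell, with a median of 0.21. Of all genes 2.81% rose and 3.75% fell there, with a median of 0.05. The 2 called target genes were Mcm7, also of the helicase (0.45, limma adjusted p = 0.0186), and the checkpoint kinase gene Chek1 (-0.46, 0.0195), calls that 3 and 4 single arrays ended. Without array B of B140H they had 0.44 (limma adjusted p = 0.0491) and -0.43 (0.0564). The mean of the Chek1 probe sets gave -0.22 (limma adjusted p = 0.164), and its call also ended without _s_at and _x_at probe sets (0.128). With the letter as a replicate block Mcm3 (0.31, limma adjusted p = 0.0433) and Rfc3 (0.35, 0.0458) were called up in B140H too. At an unadjusted p under 0.05 the limma fit had 12 of the 28 in B117H and 14 in B140H, where 20% and 18.6% of all genes stood.

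Of 8 other G1/S cyclin and kinase genes, Mnat1, a subunit of the kinase that activates Cdk proteins, rose in B117H from 562 ± 34.2 to 1080 ± 65.4 units (SD, n = 3), a change of 0.94 (limma adjusted p = 3.58e-05). Its value in B140H was 0.05 (0.869). An unadjusted limma p under 0.05 was reached by 3 of the 8 in B117H and 1 in B140H, beside 20% and 18.6% of all genes. None of the 6 other Cdk inhibitor genes was called in either pair, by limma, with 0 in B117H and 3 in B140H at an unadjusted p under 0.05, beside the 20% and 18.6% of all genes. Cdkn1a, the gene of the p53-induced inhibitor p21, differed between the lineages, at 1386 ± 244 and 1119 ± 277 units in B117P and B117H and 5724 ± 404 and 7893 ± 128 in B140P and B140H (SD, n = 3). It was higher in B140P than in B117P by 2.06 (limma adjusted p = 1.17e-06) and in B140H than in B117H by 2.85 (4.53e-08), or 2.86 (8.95e-07) without array B of B140H. None of the 5 genes of Cdk phosphatases and their opposing kinases was called in either pair (limma, 0 and 0 at an unadjusted p under 0.05). Of 10 upstream transcription factors, Myc, which drives growth and several D-type cyclin and Cdk genes, fell in B140H (-0.60, limma adjusted p = 0.0280), with 6571, 5668 and 6909 units in B140P and 4692, 3273 and 4773 in B140H. All B140H arrays lay below those of B140P, array B the lowest. The call ended without that array (limma adjusted p = 0.0621) and without array A (0.104) or C (0.120) of B140P. It also ended with only the compared lines in the fit (0.127). Of the 10 factors, 4 in B117H and 1 in B140H had an unadjusted limma p under 0.05, beside 20% and 18.6% of all genes.

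For the 3 genes of the 10 whose line means spread most, the genes with the most similar pattern over the 12 arrays were looked up by Pearson correlation of the log2 levels. Genes with provisional symbols, such as Riken clones and predicted genes, were left out beforehand. The correlations describe 12 arrays of only 4 lines. For Ccne1 the most similar of the remaining genes were Cdipt (0.98), Hmgn3 (0.97) and Smagp (0.97). Hmgn3, for example, averaged 986 units in B117P, 179 in B117H, 530 in B140P and 3258 in B140H, the same order of lines. For Cdkn1b they were Rlf (0.95), Lockd (0.93) and Klhl28 (0.92), and Lockd lies next to Cdkn1b in the gene order. For Ccnd1 they were Extl2 (0.94), Commd6 (0.91) and Gng2 (0.89).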

How the data were processed

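The values were deposited by the authors as probe-set intensity values, 1 column per array, and RMA is named in the submitters' processing notes, with no version or settings given in the sources used here. RMA corrects background, normalizes between arrays and compresses differences among dim probes. That the scale is linear was read from the values. RNeasy Midi kits, MessageAmp amplification and biotin were used for RNA and label, per the labels' protocols. Of 45101 probe sets, 64 array controls were left out. Of the 45037 tested, the platform annotation gave 34945 a single gene symbol, 932 several and 9160 none, and genes were named only from the first kind.

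Intensities were put on the log2 scale with a pseudocount of 1. limma 3.58.1 in R 4.3.3 (lmFit, contrasts.fit, eBayes, two-sided) was fitted to all 12 arrays with 1 coefficient per line, with a Benjamini-Hochberg adjusted p under 0.05 as the threshold, and was tested on simulated data. The residual SD had a median of 0.154 log2 units over all probe sets, and the 10 genes had 95% intervals of 0.17 to 0.54 to either side in the resistant-parental comparisons.

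The 10 genes, the lists and the naming rule were chosen with earlier results of these data known. All 10 genes are named. From each list at most 4 called genes per comparison are named, those with the largest change. Members called in a pair are given array by array. The lists hold 92 symbols, of which 4 are older names of genes also listed under their current symbol, and the other 88 were measured.

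The letters A, B and C were checked by correlating, across probe sets, how far each array lay from the mean of its line. Same-letter correlations were 0.59, 0.36 and 0.56 between B140P and B140H, 0.45, 0.35 and 0.53 between B117H and B140H, and 0.50, 0.13 and 0.41 between B117P and B140P. Between B117P and B117H they were 0.56, 0.03 and 0.39, and between B117P and B140H 0.48, -0.04 and 0.36, so B of B117P did not match in either. The main fit has no term for the letter, and a fit with it as a block was an alternative. Other alternatives were the pair's arrays alone, quantile normalization again, median centring, brighter probe sets, trended robust priors, averaging all probe sets of a gene, no _s_at or _x_at probe sets, no pseudocount, and leaving out each array or each letter. Promoter sequences are from RefSeq.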

Additional observations from a re-analysis of the deposited data

Results flagged for a closer look

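Both probe sets of Ccne1 differed between the lineages in their response, by a test of the difference itself and with arrays that did not overlap within either pair. The B140 change minus the B117 change was 1.68 for 1441910_x_at (limma adjusted p = 3.51e-05) and 1.89 for 1416492_at (1.67e-05). For the Ccnd3 probe set 1438805_at the difference was -0.91 (limma adjusted p = 0.00567), also with opposite directions and no overlap in either pair, while the brightest Ccnd3 probe set had 0.43 (0.178).

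Of the 88 other G1/S genes measured, 8 differed between the pairs by the same test. Over all genes 10.4% were called for that difference. Skp2 had a difference of 1.47 (limma adjusted p = 0.00818), Cks2 0.74 (0.00186) and Gsk3b 0.65 (0.00998), all of them genes that fell in B117H. Mnat1 had -0.89 (limma adjusted p = 0.000955) and E2f6 -0.67 (0.0214), genes that rose in B117H. Tfdp2, called in opposite directions in the 2 pairs, had -1.15 (limma adjusted p = 0.00148). Cdc45, a replication factor called in neither pair, had 0.58 (limma adjusted p = 0.0194), and Chek1 had -0.60 (0.0202). Leaving out single arrays ended the call for E2f6 with 5 of the 12 arrays (limma adjusted p up to 0.0558), for Chek1 with 3 (up to 0.0608) and for Cdc45 with array A of B140P (0.0559). All 8 differences kept their direction and call without array B of B140H (limma adjusted p up to 0.0392). With the mean of the gene's probe sets E2f6 had -0.33 (limma adjusted p = 0.144) and Cdc45 0.27 (0.180). Leaving out all arrays of 1 letter ended the call of each of these 8 genes but Mnat1 under at least 1 letter, Skp2 at up to 0.173 and Tfdp2 at 0.0785. With the letter as a replicate block Fbxo4 (0.65, limma adjusted p = 0.00847) and Tyms (-0.51, 0.0277) differed between the pairs too. Neither was called in the main fit (limma adjusted p = 0.065 and 0.101). Over the alternatives the Tyms difference ran from -0.66 to 0.06, so its direction was not kept.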

How the results depend on the processing

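Of the 50 values for the 10 genes in the 5 comparisons, 10 were called. The fall of Ccne1 in B117H, its difference between the pairs and its higher level in B140H than in B117H kept direction and call under all alternatives run (24 settings, 23 for the difference), 7 calls were lost under at least 1, and 7 values gained a call under at least 1. The number of the 10 genes called in B140H was 3, and 1 when all probe sets of a gene were averaged. For the difference between the pairs it was 1, and 2 with the replicate block, median centring, brighter probe sets only or trended robust priors, the added gene being Cdkn1b with the block and Ccnd1 with the others. Between the parental lines it was 1, and 2 with the replicate block, only those lines in the fit, brighter probe sets only, trended robust priors or the mean of probe sets, the added gene being Ccne2, Ccne2, Cdk6, Cdk6 and Ccnd3 in that order. Leaving out single arrays or all arrays of 1 letter gave 1 to 2 called genes in B117H, 0 to 4 in B140H, 1 throughout for the difference, 0 to 2 between the parents and 1 to 3 between the resistant lines. The replicate block changed no call of these genes other than those of Ccne2 and Cdkn1b given above. Ccnd3 reversed between the parental lines with the mean of its probe sets (0.36, limma adjusted p = 0.0106). Over all genes the count in the B117 pair was 1712, between 588 without all C arrays and 2381 with the block, and in the B140 pair 1194, between 354 without all B arrays and 1827 with the block. For the difference it was 1896 (575 to 2739), between the parents 4333 (2698 to 5139) and between the resistant lines 4911 (3130 to 5846). The cause of these shifts was not tested.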

Other observations

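Up to 3 measured genes on each side of every member, in the gene order of assembly GRCm38.p6, were set beside it; for Cdk6 the order gave neighbours on 1 side. None of the 6 around Ccne1 on chromosome 7 was called in either pair or for the difference between them. The adjacent Uri1 had -0.27 in B117H, 0.23 in B140H and a difference of 0.50 (limma adjusted p = 0.0745). No neighbour of any of the 10 genes was called in B140H. Near Cdkn1b, Ddx47 fell in B117H by 0.43 on the log2 scale (limma adjusted p = 0.0105) and Gpr19 by 0.35 (0.0278), while Cdkn1b itself had 0.58. Near Cdk2, Dgka (0.70, limma adjusted p = 0.00416) and Suox (0.53, 0.0107) rose in B117H, and near Cdk4, Mettl1 fell there (-0.55, 0.0112), while Cdk2 had 0.09 and Cdk4 -0.09. For the difference between the pairs 5 neighbours were called: Ddx47 (0.67, limma adjusted p = 0.00576), Gpr19 (0.58, 0.0107), Dgka (-0.83, 0.0123), Mettl1 (0.70, 0.0198) and Ints8, next to Ccne2 (-0.52, 0.0488). Of all genes, 9.41% were called in the B117 pair, 6.56% in the B140 pair and 10.4% for the difference.

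Some probe sets of these genes followed the array letter. Array A was the highest of its line in all 4 lines for 9 of the 27 probe sets (33.3%), against 8.04% of all 45037. These were 6 of the 7 probe sets of Ccnd2, all but the brightest, with 1417419_at of Ccnd1, 1415907_at of Ccnd3 and 1460291_at of Cdk6. Of these, 1415907_at stood for its gene in the fit with the letter as a replicate block, which changed none of its calls. Its call in B140H ended without all arrays of any 1 letter. The part of the others in the results was not tested. The pattern with the letter was noticed in the data.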
